A study of Mus musculus with 29 samples.

Results

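The tricarboxylic acid (TCA) cycle and mitochondrial fatty acid oxidation are described here through 38 genes, chosen by symbol from the deposited table of 30025 genes. All 38 were found. They cover the pyruvate dehydrogenase complex, the enzymes of the cycle, pyruvate carboxylase, the carnitine shuttle, the enzymes of beta-oxidation and the electron transfer flavoprotein. Of these, 36 passed a filter of at least 1 FPKM (a fragment count corrected for the exon length of the gene and the size of the library) in at least 4 libraries and entered the tests. Pyruvate carboxylase (Pcx) and the muscle form of carnitine palmitoyltransferase I (Cpt1b) did not.

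The TCA cycle oxidizes acetyl-CoA in the mitochondrial matrix and passes the electrons to the respiratory chain. The acetyl-CoA comes from pyruvate, through the pyruvate dehydrogenase complex, or from fatty acids, which enter the matrix as carnitine esters and are then shortened stepwise by beta-oxidation. Quiescent hematopoietic stem cells (HSC) are known for a largely glycolytic metabolism, and fatty acid oxidation has been linked to the way in which they divide.

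RNA-Seq was performed on 3 populations of bone marrow cells that were c-kit+, Sca-1+ and negative for lineage markers, CD41 and CD48. They were sorted by surface CD150 into CD150hi HSC, CD150lo HSC and CD150neg multipotent progenitors (MPP), which the sample labels call CD150neg HSC. The mice were of the C57BL/6J strain. WT mice, with intact chromosomes, were compared with 5A3+/del mice, which carry a germline deletion between Fbxl13 and Srpk2 on chromosome 5 of 1 homolog in every cell and model a segment lost from human 7q22 in myeloid malignancies. WT mice were 12.42 to 13.28 weeks old and 5A3+/del mice 12.42 to 13.85 weeks old. Each of the 6 groups held 5 mice, except the 5A3+/del CD150neg MPP with 4. Each mouse gave a library of each population, apart from 5A3+/del mouse 5, which gave no CD150neg MPP library. The genotypes are different mice. The deletion is the only allele that the labels name.

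The 29 libraries held 21230000 to 38800000 fragments, recovered from the steps in the low values. Slamf1, which encodes CD150, followed the sort, with medians of 14.7 and 16.6 FPKM in WT and 5A3+/del CD150hi HSC, 1.6 and 1.09 in CD150lo HSC, and 0.142 and 0.0171 in CD150neg MPP. In the check of the deletion, 4 genes were called lower in 5A3+/del cells of all 3 populations (Orc5, Dnajc2, Mll5 and Pmpcb, log2 differences of -1.17 to -0.7). All 4 lie between Fbxl13 and Srpk2, and none of the 38 members does. Of the lymphocyte markers, Ms4a1 was at most 0.0441 FPKM and Cd3e at most 1.06, whereas the B-cell receptor gene Cd79b was at 5.43 to 31.7 FPKM. Transcripts of granulocytes were present in some libraries and are given below beside the results.

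The windows upstream of the transcription starts are shown first, to show what the members have in common in sequence. RefSeq windows (GRCm38.p6) were at hand for 34 of the 38 members, and the 250 bases before the start were searched on both strands. The core of the nuclear respiratory factor 1 element, GCGCNTGCG, was found in 9 of the 34 members (26.5%), in 1128 of 8975 tested genes with a window (12.6%) and in 1589 of all 27025 genes with a window (5.88%). Nuclear respiratory factor 1 is a transcription factor known for genes of the mitochondria. The 9 members were Pdha1, Idh3g, Ogdh, Sucla2, Sdha, Sdhd, Acadm, Etfb and Etfdh. The cAMP response element TGACGTCA was found in 2 members (Ogdh and Mdh2, 5.88%, against 2.99% of tested genes), and the estrogen-related receptor element TNAAGGTCA in 0 of the 34 (0.891% of tested genes). The median GC content of the windows was 59.6% for the members and 59.2% for the tested genes. A match is a match of letters and not a measured binding site.

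The windows of 3 members with a match, 2 of them partners in the electron transfer flavoprotein pathway, are printed with the matched letters in capitals. In that of Etfdh, matches on opposite strands overlap. The window of Acads, a member called between populations further on, is printed for comparison and holds none of the 3 elements. Each runs 5′ to 3′ on the strand of the gene, and the windows are Etfdh chr3:79628768-79629017 (minus strand), Etfb chr7:43443822-43444071 (plus strand), Acadm chr3:153944644-153944893 (minus strand) and Acads chr5:115119347-115119596 (minus strand).
Etfdh: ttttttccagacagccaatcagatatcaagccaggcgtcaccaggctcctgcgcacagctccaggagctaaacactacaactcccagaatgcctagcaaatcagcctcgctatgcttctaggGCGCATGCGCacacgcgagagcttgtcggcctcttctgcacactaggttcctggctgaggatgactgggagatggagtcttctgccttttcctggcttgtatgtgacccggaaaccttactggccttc
Etfb: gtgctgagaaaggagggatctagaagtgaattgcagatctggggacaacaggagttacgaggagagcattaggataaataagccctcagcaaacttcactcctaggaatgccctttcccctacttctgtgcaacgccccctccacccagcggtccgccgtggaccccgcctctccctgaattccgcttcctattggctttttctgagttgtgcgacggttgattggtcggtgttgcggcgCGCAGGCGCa
Acadm: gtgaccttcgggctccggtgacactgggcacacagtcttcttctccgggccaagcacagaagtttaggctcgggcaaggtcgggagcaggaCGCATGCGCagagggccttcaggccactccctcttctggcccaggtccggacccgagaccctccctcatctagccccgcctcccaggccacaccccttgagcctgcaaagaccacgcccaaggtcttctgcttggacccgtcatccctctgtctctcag
Acads: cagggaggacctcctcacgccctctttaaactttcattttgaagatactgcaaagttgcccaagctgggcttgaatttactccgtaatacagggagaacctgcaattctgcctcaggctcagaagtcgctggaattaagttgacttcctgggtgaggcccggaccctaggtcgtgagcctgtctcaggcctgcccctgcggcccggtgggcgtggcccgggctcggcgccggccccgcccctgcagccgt

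The median of their mean levels was 16.7 normalized FPKM (values quantile normalized over the libraries) against 5.91 for all genes tested, and the means ranged from 1.69 to 52.6. The spread between mice of a group was a median coefficient of variation of 14.8% over the 36 members, against 21.8% for the 11648 genes tested with a mean level in the same range. Within that range the genes were not matched for level. Among the 36 members the one with the lowest mean, Acadvl, had the highest coefficient of variation (35.2%). A member was covered by 42 to 8071 fragments in a library, with a median of 1435. FPKM are per exon length, taken over all annotated exons of a gene. Any exons that these cells do not use would lower the level of a gene. Levels compared between genes therefore depend on the annotation, and are also limited by the amplified RNA. Etfb and Etfdh, with 1139 and 6771 bases of exons, had medians of 1356 and 1435 fragments.

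The highest levels were those of succinate dehydrogenase subunits. Sdhd, a membrane anchor of the complex, had a mean of 52.6 and Sdha, the flavoprotein subunit, 51.9 normalized FPKM over all libraries. Sdhd was at 66.8, 36.7, 48.8, 56.3 and 59.7 in WT CD150hi HSC and at 36.3, 51.5, 60.2, 40.7 and 59.4 in 5A3+/del CD150hi HSC, so the genotypes overlapped. In CD150lo HSC it was at 50.9, 60.4, 51.5, 65.1 and 48.4 in WT and at 43.5, 40.5, 50.2, 54.9 and 47.1 in 5A3+/del mice, and in CD150neg MPP at 62.1, 61.7, 52.6, 50.8 and 46.6 and at 51.6, 59.0, 54.4 and 58.6. The 6 group means of Sdhd, 47.2 to 55.9, differed by less than the range within most groups. Sdhb, the iron-sulfur subunit, was lower than Sdha in 29 of 29 libraries, with a median ratio of Sdha to Sdhb of 4.83 (range 1.87 to 6.6).

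**Figure D1:**
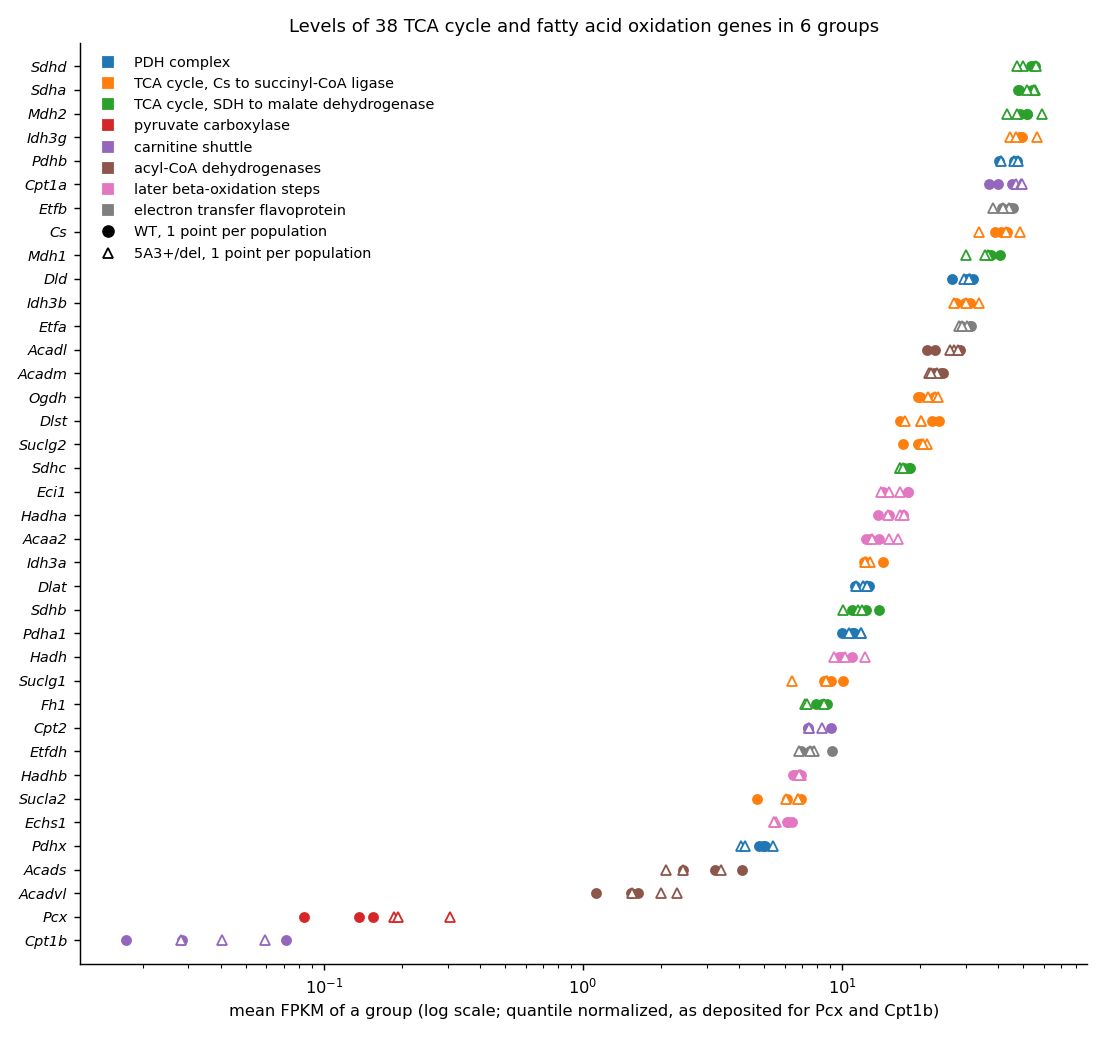
Mean level of each of the 38 members (rows, ordered by level) in the 6 groups on a logarithmic axis of FPKM. Filled circles are WT and open triangles 5A3+/del groups, colors mark the roles, and the order runs from Sdhd (mean over all libraries 52.6 FPKM) down to Cpt1b (0.0401), with Pcx and Cpt1b far below the other 36.

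Levels in FPKM were uneven within a complex or enzyme family in all 3 populations, and they depend on the exon lengths. Pdhb and Pdha1, with 1485 and 3774 bases of exons, had medians of 1883 and 1213 fragments. In the pyruvate dehydrogenase complex, Pdhb (E1 beta, mean 44.5) exceeded Pdha1 (E1 alpha, 11.0) in 29 of 29 libraries with a median ratio of 3.9, and the E3-binding protein Pdhx had the lowest level of the complex (4.72). Dld, the E3 subunit that other 2-oxoacid dehydrogenases also use, had a mean of 29.9, and the acetyltransferase Dlat one of 12.0. Among the subunits of NAD-dependent isocitrate dehydrogenase, Idh3g (48.6) and Idh3b (29.8) exceeded the catalytic Idh3a (12.7). For succinyl-CoA ligase, the GTP-specific beta subunit Suclg2 (19.7) exceeded the ATP-specific Sucla2 (6.22) in 29 of 29 libraries, with a median ratio of 3.46 that ranged from 1.77 to 7.77. Mitochondrial Mdh2 (49.8) and cytosolic Mdh1 (36.2) were closer, with Mdh2 higher in 28 of 29 libraries. The remaining enzymes of the cycle were Cs, citrate synthase (41.3), the 2-oxoglutarate dehydrogenase subunits Ogdh (21.6) and Dlst, and Fh1, fumarase (7.98).

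In fatty acid oxidation, the main transcript of carnitine palmitoyltransferase I among the members was Cpt1a. It encodes the liver form of this outer-membrane enzyme, which controls fatty acid import. Its mean was 44.3 normalized FPKM, rank 6 among the 38 members, and it exceeded Cpt2, the inner-membrane enzyme (7.85), in 29 of 29 libraries. Cpt1b, the member with the lowest mean, was at 0, 0, 0.0545, 0.0865 and 0 deposited FPKM in WT CD150hi HSC and at 0.0111, 0.0695, 0, 0.0863 and 0.035 in 5A3+/del cells of that kind. The CD150lo HSC values were 0.0459, 0, 0.165, 0.0676 and 0.077 in WT and at 0.0241, 0, 0.0129, 0.0829 and 0.0206 in 5A3+/del mice, and in CD150neg MPP at 0, 0.00959, 0.0179, 0.02 and 0.0385 and at 0, 0.0459, 0.134 and 0.0566. These values rest on 0 to 14 fragments, and 15 of 29 libraries held at most 3. Pcx, which makes oxaloacetate from pyruvate, was at 0 to 0.72 FPKM, from 0 to 81 fragments. No exact two-sided permutation test between the genotypes within a population gave a p under 0.05 for these 2 genes (0.159 to 0.762), at levels near the limit of detection.

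The acyl-CoA dehydrogenases, which catalyze the first step of beta-oxidation for chains of different length, were of unequal level. Acadl (long-chain, mean 25.5) and Acadm (medium-chain, 23.0) were high, and Acads (short-chain, 2.93) and Acadvl (very long-chain, 1.69) were low in all 3 populations. The median ratio of Acadl to Acadvl was 16.4 (range 7.13 to 47.4). Of the mitochondrial trifunctional protein, which performs the later steps on long chains, the alpha subunit Hadha (15.8) exceeded the beta subunit Hadhb (6.77) in 29 of 29 libraries. Echs1 (crotonase, 5.86), Hadh (10.3), Acaa2 (thiolase, 14.0) and the isomerase Eci1 (16.0) were in the same range. Etfb (42.5) and Etfa (29.8) form the flavoprotein that takes electrons from the acyl-CoA dehydrogenases, and Etfdh (7.62) passes them on to ubiquinone.

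Of the 29 libraries, that of CD150hi HSC of 5A3+/del mouse 1 stood apart. It held the lowest value of all libraries for 14 of the 36 members and the highest for 3, so that 17 members (47.2%) had an extreme there, against 24.2% of all genes tested. The 28 other libraries held extremes for 0 to 9 members, the most in CD150hi HSC of WT mouse 2 (25% of members, 19.2% of all genes). The 14 members included Pdhb, Cs, Idh3g, Suclg1, Sdha, Sdhc, Sdhd, Fh1, Mdh1, Mdh2, Acadm and all 3 electron transfer flavoprotein genes, and the 3 at their highest were Idh3a, Suclg2 and Acadvl. Its depth was 26.6 M fragments, within the range of the others. Several results that involve CD150hi HSC are also given without 5A3+/del mouse 1.

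**Figure D2:**
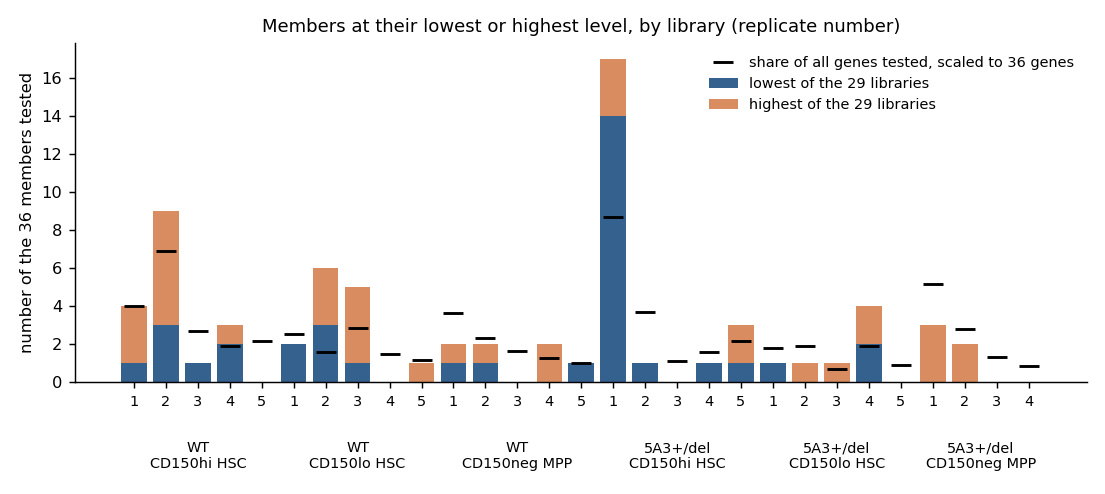
Number of the 36 members tested that were at their lowest (blue) or highest (orange) level of the 29 libraries, for each library, with replicate (mouse) numbers on the horizontal axis and black marks for the share of all genes tested that had an extreme in that library, scaled to 36 genes. The tallest bar, 17 members, is 5A3+/del CD150hi HSC of mouse 1.

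The first question was whether the 5A3 deletion changed these genes in any population. None of the 36 members passed the test (limma with Benjamini-Hochberg adjustment over all genes, adjusted p under 0.05) in any of the 3 populations. Of all genes, 0.156% were called for the CD150hi, 0.0324% for the CD150lo and 0.0454% for the CD150neg cells. At an unadjusted p under 0.05 CD150hi HSC had 5 members (4 of them with lower means in the 5A3+/del group, against a background of 13.1% of all genes), 2 in CD150lo HSC (both higher, 6.87%) and 0 in CD150neg MPP (4.27%). The differences of the members lay between -0.38 and 0.46 on the log2 scale in CD150hi HSC, between -0.31 and 0.5 in CD150lo HSC and between -0.23 and 0.29 in CD150neg MPP. In terms of FPKM + 1, the 95% intervals of all 36 members lay within 2-fold in either direction in each population. Within 1.5-fold lay 23, 26 and 31 of them. For low members such as Acadvl, the interval in FPKM itself is wider. A p that misses the threshold does not show that values did not differ, and the intervals give the sizes that 4 or 5 mice per group left possible.

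The median difference over the members was -0.11 in CD150hi HSC, with 0.0044 for all genes tested, and 15 of 36 members were positive against 50.7% of all genes. Without 5A3+/del mouse 1 this median was -0.01, 16 of 36 were positive and the members at an unadjusted p under 0.05 were 2 higher and 2 lower. Without WT mouse 2 they were 0 higher and 1 lower, with a median of -0.1. The medians in CD150lo HSC (-0.037) and CD150neg MPP (0.013) were close to those of all genes (0.011 and -0.0013). For all these levels, fewer cells of a type and less RNA per cell cannot be told apart.

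**Figure D3:**
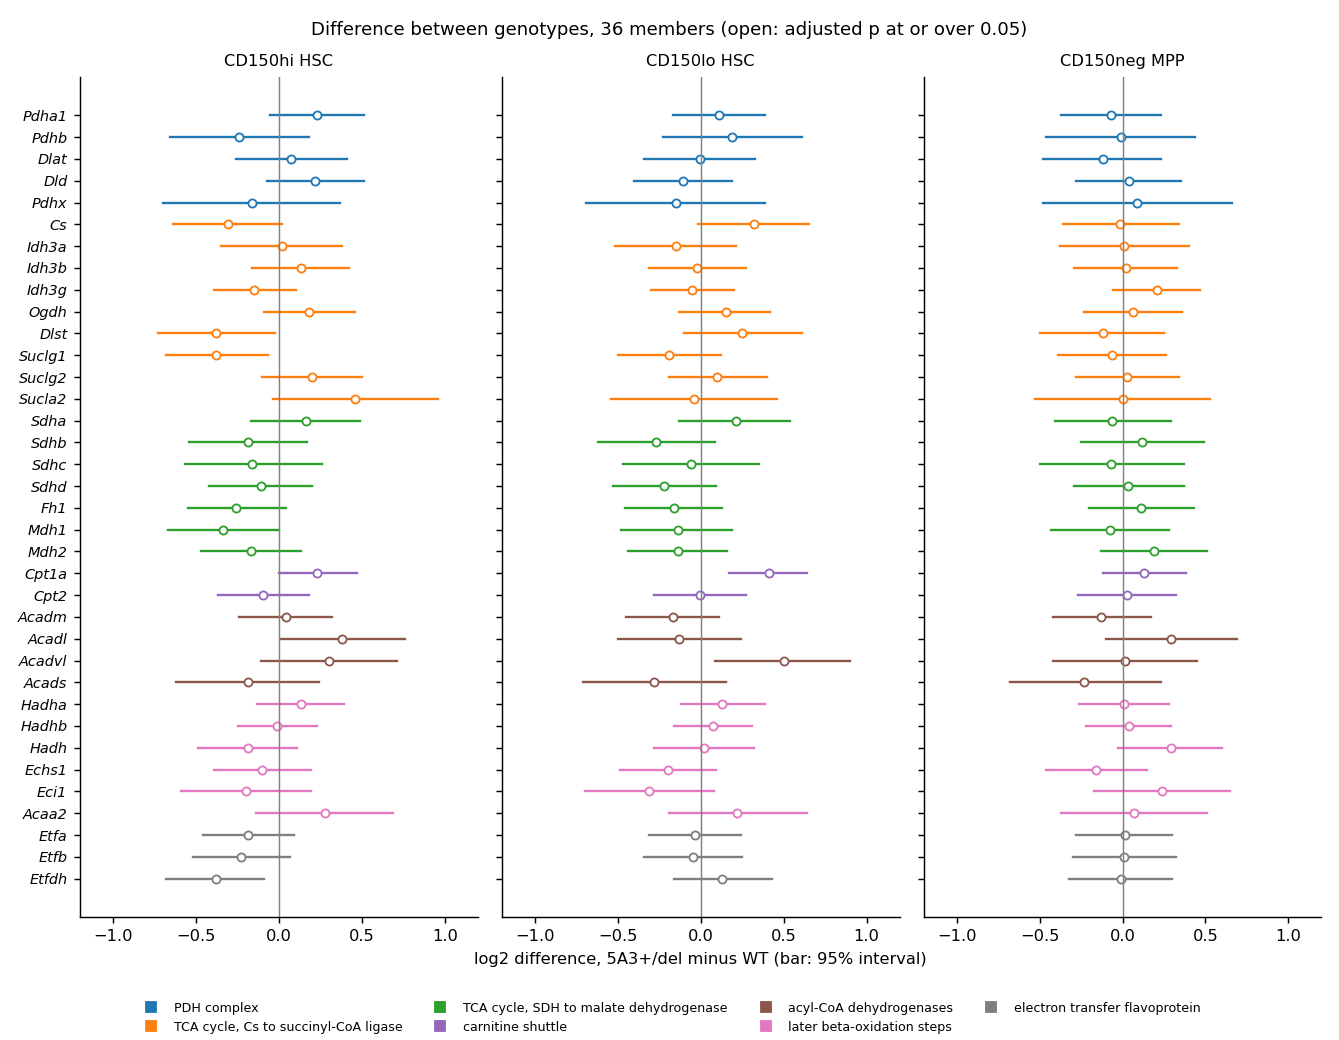
Difference of 5A3+/del minus WT on the log2(FPKM + 1) scale for the 36 members tested (rows, grouped by role) in 3 populations, with 95% intervals as bars. All symbols are open because no adjusted p was under 0.05, and the points lie between -0.38 and 0.5.

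By role, the 36 members were counted by the sign of their estimates. Of the 7 genes from succinate dehydrogenase to malate dehydrogenase 6 had a negative estimate for the CD150hi cells (median -0.17), as had 3 of 3 electron transfer flavoprotein genes (median -0.23), none called. Without 5A3+/del mouse 1 these were 5 of 7 (median -0.043) and 3 of 3 (median -0.094). In CD150lo HSC 6 of those 7 were negative (median -0.14), and in CD150neg MPP 3 (median 0.036). The pyruvate dehydrogenase complex had medians of 0.074, -0.0049 and -0.01 and the first 9 cycle genes 0.016, -0.02 and 0.008 in the 3 populations, with 0.046 and -0.093 in CD150hi HSC without 5A3+/del mouse 1. The carnitine shuttle had medians of 0.068, 0.2 and 0.077, the acyl-CoA dehydrogenases 0.17, -0.15 and -0.058, and the later enzymes of beta-oxidation -0.056 (-0.012 without 5A3+/del mouse 1), 0.048 and 0.054. Sdha, Sdhc, Sdhd, Fh1, Mdh1, Mdh2 and the flavoprotein genes are among those at their lowest in 5A3+/del mouse 1. For Sdha the estimate in CD150hi HSC was positive (0.16) and rose to 0.38 without that mouse (95% interval 0.15 to 0.62). With all mice the Sdha values of the genotypes overlapped in CD150hi HSC, and without that mouse all 5A3+/del values exceeded the highest WT value. Sdha then had the smallest unadjusted p of the members (0.00238 by limma), but it did not pass the correction (adjusted p = 0.169). That mouse was singled out because many members, Sdha among them, were at their lowest there. The separation and the p of Sdha without it thus depend on this choice and are no test of the deletion.

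Etfdh (mm9 chr3:79407710-79432785) had the smallest p of the members in CD150hi HSC. Its normalized FPKM were 9.19, 11.7, 8.42, 8.08 and 8.18 in WT and 4.51, 6.98, 8.07, 6.7 and 7.75 in 5A3+/del CD150hi HSC. The groups did not overlap, by a margin of 8.08 against 8.07, and 2.58% of all genes showed no overlap. The log2 difference was -0.38 ± 0.14 (SE, 95% interval -0.68 to -0.089, unadjusted p = 0.0128, adjusted p = 0.239 by limma), and -0.26 without 5A3+/del mouse 1. In CD150lo HSC and CD150neg MPP the genotypes overlapped, with differences of 0.13 and -0.0085.

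Suclg1 (mm9 chr6:73198376-73226905), the alpha subunit shared by both succinyl-CoA ligases, was at 10.4, 5.75, 8.37, 9.12 and 8.91 in WT and at 3.61, 6.36, 8.29, 6.2 and 7.64 in 5A3+/del CD150hi HSC. The lowest value was again that of 5A3+/del mouse 1, and the groups overlapped. The difference was -0.38 ± 0.15 (SE, 95% interval -0.68 to -0.069, adjusted p = 0.274 by limma), and -0.21 without that mouse. Dlst, the succinyltransferase of 2-oxoglutarate dehydrogenase, was at 18.3, 37.3, 19.6, 18.6 and 24.4 in WT and at 18.0, 17.3, 20.4, 16.5 and 14.8 in 5A3+/del CD150hi HSC. Its difference was -0.38 ± 0.17 (SE, adjusted p = 0.349 by limma), and -0.21 without WT mouse 2, whose value of 37.3 was the highest. The other members with an unadjusted p under 0.05 were Mdh1 (-0.34, and -0.12 without 5A3+/del mouse 1) and, in the opposite direction, Acadl (0.38, and 0.24 without WT mouse 2).

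Transcripts of granulocytes also differed between the libraries of CD150hi HSC. The summed level of 7 granulocyte and monocyte markers was 253 to 936 FPKM (median 451) in WT and 201 to 306 (median 219) in 5A3+/del CD150hi HSC, of which Lyz2 made 162 to 207 and 183 to 215. S100a8 was at 16.8 to 478 and 0 to 62.5 FPKM. Of the 6 markers tested none was called, with a median log2 difference of -1.07. In WT CD150hi HSC the highest values of the neutrophil genes Ly6g, Mpo and Elane were 9.31, 19.7 and 19.1 FPKM, with medians of 0, 0.172 and 0.16. In 5A3+/del CD150hi HSC their highest values were 0, 0.114 and 0.287. Other markers of the list went the other way. Itgam was at 0.615 to 1.85 FPKM (median 1.38) in WT and 1.73 to 8.0 (median 3.38) in 5A3+/del CD150hi HSC. The medians of Lyz2 were 175 and 191. The part of these transcripts in the differences of Etfdh, Suclg1 and Dlst was not tested.

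Cpt1a (mm9 chr19:3323301-3385732) was the member with the smallest unadjusted p in any comparison of genotypes within a population. In CD150lo HSC its normalized FPKM were 31.3, 33.1, 41.3, 34.6 and 43.2 in WT and 51.0, 48.6, 48.7, 41.1 and 54.7 in 5A3+/del mice. A single 5A3+/del library, that of mouse 4, lay within the WT range. The log2 difference was 0.41 ± 0.11 (SE, 95% interval 0.17 to 0.64, adjusted p = 0.229 by limma), so the result did not pass the correction.

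In CD150hi HSC Cpt1a was at 35.5, 40.4, 45.2, 38.7 and 39.0 in WT and at 43.7, 53.9, 46.1, 41.4 and 49.8 in 5A3+/del mice, a difference of 0.23 (95% interval -0.0014 to 0.47). In CD150neg MPP it was at 42.7, 49.1, 51.8, 40.7 and 40.6 in WT and at 55.3, 49.4, 51.1 and 41.8 in 5A3+/del mice, a difference of 0.13 (95% interval -0.12 to 0.38). All 3 estimates were positive, and the libraries of the 3 populations come from the same mice. Averaged over the populations, a comparison chosen after the values had been seen, the difference was 0.26 ± 0.07 (SE, 95% interval 0.12 to 0.4, adjusted p = 0.0738 by limma), and with the mouse as a random block adjusted p = 0.13. In that average 0.467% of all genes and 0 of 36 members were called, with 3 members at an unadjusted p under 0.05 (12% of all genes). Cpt1a was called with no filter (adjusted p = 0.0484 by limma), with a minimum of 10 FPKM (0.0333), with a trended prior (0.0382) and without 5A3+/del mouse 4 (0.0472).

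Acadvl, at a low level, was at 1.24, 0.766, 0.806, 1.34 and 1.44 in WT and at 2.04, 2.27, 1.72, 2.52 and 1.38 in 5A3+/del CD150lo HSC. The 5A3+/del values were higher in 4 of 5 mice than any WT value, with a log2 difference of 0.5 ± 0.2 (SE, adjusted p = 0.574 by limma). Cs, which condenses acetyl-CoA with oxaloacetate at the entry of the cycle, was at 33.9, 32.8, 37.5, 47.4 and 43.0 in WT and at 45.1, 46.9, 45.7, 58.1 and 46.3 in 5A3+/del CD150lo HSC, a difference of 0.32 (95% interval -0.016 to 0.65). The only member without overlap in CD150lo HSC was the hydratase Echs1 (5.44 against 6.38, log2 difference -0.2, adjusted p = 0.894 by limma), where 1.63% of all genes had none. The granulocyte and monocyte marker sum in CD150lo HSC was 186 to 1500 FPKM (median 355) in WT and 211 to 541 (median 364) in 5A3+/del mice. Of the 6 markers tested there none was called (median log2 difference -0.1). Their part in the CD150lo differences of Cpt1a, Acadvl, Cs and Echs1 was not tested. In CD150hi HSC the difference of Cs had the opposite sign, -0.31 (95% interval -0.64 to 0.018), with 19.0 in 5A3+/del mouse 1, and without that mouse it was -0.13 (95% interval -0.41 to 0.15).

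In CD150neg MPP the 3 members with the smallest p had intervals that included 0. Hadh was at 10.1, 7.59, 9.09, 11.2 and 10.4 in WT and at 16.9, 11.2, 10.5 and 10.3 in 5A3+/del mice (difference 0.29, 95% interval -0.027 to 0.6), with 16.9 in mouse 1 as the highest, and the difference was 0.13 without that mouse. Idh3g was at 56.1, 40.7, 45.7, 46.4 and 53.3 and at 61.8, 67.9, 49.1 and 46.7 (0.21, -0.057 to 0.47), and the difference was 0.11 without 5A3+/del mouse 2. Acadl was at 17.0, 20.8, 25.3, 24.5 and 26.5 and at 22.9, 30.3, 28.7 and 30.1 (0.29, -0.1 to 0.69). No member was without overlap in CD150neg MPP, against 1.51% of all genes.

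**Figure D4:**
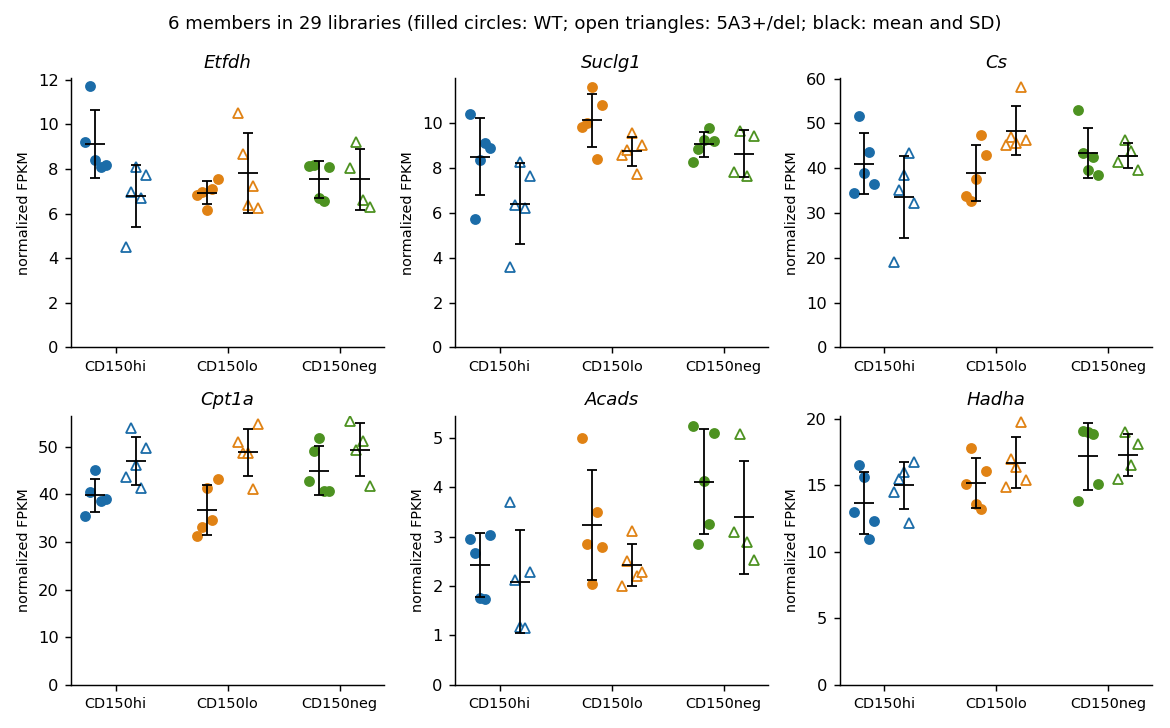
Normalized FPKM of 6 members in all 29 libraries, with WT as filled circles, 5A3+/del mice as open triangles, populations on the horizontal axis and the mean and SD of each group in black. For Etfdh, Suclg1 and Cs the lowest triangle in CD150hi HSC (4.51, 3.61 and 19.0) is mouse 1, and for Cpt1a the triangles lie above most circles in CD150lo HSC.

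Whether the deletion acted differently in the 3 populations was tested as the difference between genotype effects. No member was called in the 3 interaction contrasts, and 0% of all genes were. At an unadjusted p under 0.05 there were 3 members for CD150lo HSC against CD150hi HSC (3.98% of all genes), 1 for CD150neg MPP against CD150hi HSC (7.96%) and 0 for CD150neg MPP against CD150lo HSC (5%). The 3 were Cs (0.63, 95% interval 0.16 to 1.1), Dlst (0.63, 0.13 to 1.13) and Etfdh (0.52, 0.1 to 0.93), all with adjusted p = 0.999 by limma, and the 1 was Hadh (0.48, 0.043 to 0.91). Without 5A3+/del mouse 1 these were 0.47, 0.74, 0.29 and 0.31 in the order named, and the intervals of Etfdh (-0.071 to 0.66) and Hadh (-0.12 to 0.74) then included 0. For Dlst, WT mouse 2 held the highest value of all libraries in CD150hi HSC (37.3) and the lowest in CD150lo HSC (11.9). Without WT mouse 2 the genotype difference of Dlst went from -0.38 to -0.21 in CD150hi HSC and from 0.25 to 0.14 in CD150lo HSC. The intervals of the 3 interaction contrasts lay within 2-fold of FPKM + 1 for 31, 33 and 33 of the 36 members, in the order named.

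The second question was whether the populations differed. Many genes separated CD150hi HSC from CD150neg MPP, with 10% of all genes called in WT and 6.16% in 5A3+/del mice, and none of the 36 members was called in either genotype by limma. The same was true of CD150lo HSC against CD150hi HSC (3.53% and 3.18% of all genes called) and of CD150neg MPP against CD150lo HSC (0.188% and 0.0389%). At an unadjusted p under 0.05, 2 members were higher in CD150neg MPP than in CD150hi HSC in WT mice (21.8% of all genes in either direction) and 6 in 5A3+/del mice (16.9%), and none was lower. Without 5A3+/del mouse 1 the 6 became 1. For CD150lo HSC against CD150hi HSC there were 2 higher and 2 lower in WT (14.1%) and 3 higher and 1 lower in 5A3+/del mice (13.3%), which became 1 and 1 without that mouse. The WT counts of 2 and 2 became 0 and 1 without WT mouse 2. The last contrast had 2 and 1 members, all higher in CD150neg MPP (8.75% and 4.95%). Groups without overlap were rare, at 0 and 2 members for CD150neg MPP against CD150hi HSC in WT and 5A3+/del mice (8.63% and 7.61% of all genes), 1 and 1 for CD150lo HSC against CD150hi HSC (4.04% and 4.33%), and 0 and 0 for CD150neg MPP against CD150lo HSC (2.26% and 1.95%).

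Since WT and 5A3+/del mice are separate animals, their population differences were also averaged, again a choice made after the values had been seen. In CD150neg MPP against CD150hi HSC 13.2% of all genes were called (6.2% higher), and 1 of 36 members, Acads, was higher, with 4 members at an unadjusted p under 0.05 (24.9%). In CD150lo HSC against CD150hi HSC it was 7.64% of all genes (3.41% higher) and 1 member, Suclg1, also higher, with 5 members at an unadjusted p under 0.05 (19.5%). In CD150neg MPP against CD150lo HSC it was 0.292% and 0 members, with 0 at an unadjusted p under 0.05 (7.93%). The medians over members were 0.069, 0.03 and 0.013 in the order named. Acads, Suclg1, Hadha, Cs and Mdh2 are described below between populations after their values had been seen.

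Acads (mm9 chr5:115560308-115569355), the short-chain acyl-CoA dehydrogenase, was at 2.95, 2.68, 1.75, 1.73 and 3.03 normalized FPKM in WT CD150hi HSC and at 5.24, 2.86, 4.13, 3.25 and 5.1 in CD150neg MPP of the same mice. In 5A3+/del mice it was at 3.71, 2.13, 1.17, 1.15 and 2.28 in CD150hi HSC and at 3.09, 5.08, 2.89 and 2.53 in CD150neg MPP. It was higher in CD150neg MPP in 8 of 9 mice, the exception being 5A3+/del mouse 1.

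The log2 difference of Acads was 0.57 ± 0.21 (SE) in WT and 0.54 ± 0.22 in 5A3+/del mice, with adjusted p of 0.0859 and 0.183 by limma, and the average was 0.56 ± 0.15 (95% interval 0.24 to 0.87, adjusted p = 0.013 by limma). The difference lost the call without 5A3+/del mouse 2 (adjusted p = 0.0588) and not without any other single mouse. CD150lo HSC lay between, at 5.01, 2.86, 2.05, 3.5 and 2.79 in WT and 2.01, 2.51, 3.12, 2.2 and 2.29 in 5A3+/del mice, and neither step passed the test. The sums of the granulocyte and monocyte markers were 253 to 936 FPKM in WT CD150hi HSC and 222 to 256 in WT CD150neg MPP, and 201 to 306 and 189 to 474 in 5A3+/del mice. In the average over genotypes 2 of 6 granulocyte and monocyte markers were called higher in CD150neg MPP (median 0.22) and 3 of 5 megakaryocyte markers lower (median -0.49). Their part in the differences of Acads and Hadha was not tested.

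Suclg1 was at 9.83, 10.0, 11.6, 8.42 and 10.8 in WT and at 8.59, 8.81, 9.56, 7.75 and 9.01 in 5A3+/del CD150lo HSC, against the CD150hi values given above. It was higher in CD150lo HSC in 8 of 10 mice. The averaged difference was 0.34 ± 0.11 (SE, adjusted p = 0.0482 by limma), just under the threshold, and it was not called without WT mouse 2, 3 or 5 or without 5A3+/del mouse 1, 2, 4 or 5. The difference was 0.26 without 5A3+/del mouse 1. In the same average 1 of 6 granulocyte and monocyte markers was called higher in CD150lo HSC (median 1.18) and 1 of 5 megakaryocyte markers lower (median -0.37), and their part was not tested.

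Hadha (mm9 chr5:30444841-30481702) was higher in CD150neg MPP than in CD150hi HSC of the same mouse in 9 of 9 mice. It was at 13.0, 16.5, 15.6, 11.0 and 12.3 in WT CD150hi HSC and at 13.8, 19.1, 19.0, 18.9 and 15.1 in CD150neg MPP, and at 14.5, 15.5, 16.0, 12.2 and 16.8 and at 15.5, 19.0, 16.5 and 18.1 in 5A3+/del mice. The averaged difference was 0.26 ± 0.09 (SE, 95% interval 0.068 to 0.44, adjusted p = 0.0641 by limma). It was called with the mouse as a random block (adjusted p = 0.048 by limma) and with a minimum of 10 FPKM (0.0476). Hadhb, the partner of Hadha, lies next to it on chromosome 5, is read in the opposite direction and had a difference of -0.036.

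For Cs, CD150hi and CD150lo HSC of 5A3+/del mice were compared. Its normalized FPKM were 19.0, 35.2, 38.4, 43.3 and 32.2 in CD150hi HSC and 45.1, 46.9, 45.7, 58.1 and 46.3 in CD150lo HSC, and the groups did not overlap. The difference was 0.56 ± 0.16 (SE, adjusted p = 0.0569 by limma), with the mouse as a random block adjusted p = 0.0398, and 0.39 without 5A3+/del mouse 1 (adjusted p = 0.216). The granulocyte and monocyte marker sum was 201 to 306 FPKM in these CD150hi and 211 to 541 in these CD150lo HSC, and its part was not tested. In WT mice, at 34.4, 51.6, 38.9, 43.6 and 36.5 in CD150hi HSC, the difference was -0.073 (95% interval -0.4 to 0.26). Mdh2 also showed no overlap, at 29.6, 54.5, 46.3, 45.1 and 40.7 in CD150hi HSC and at 64.9, 59.6, 55.2 and 55.4 in CD150neg MPP of 5A3+/del mice (0.46, adjusted p = 0.0852 by limma). The lowest of the former and the highest of the latter are mouse 1, and without it the difference was 0.28 (95% interval -0.044 to 0.61).

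**Figure D5:**
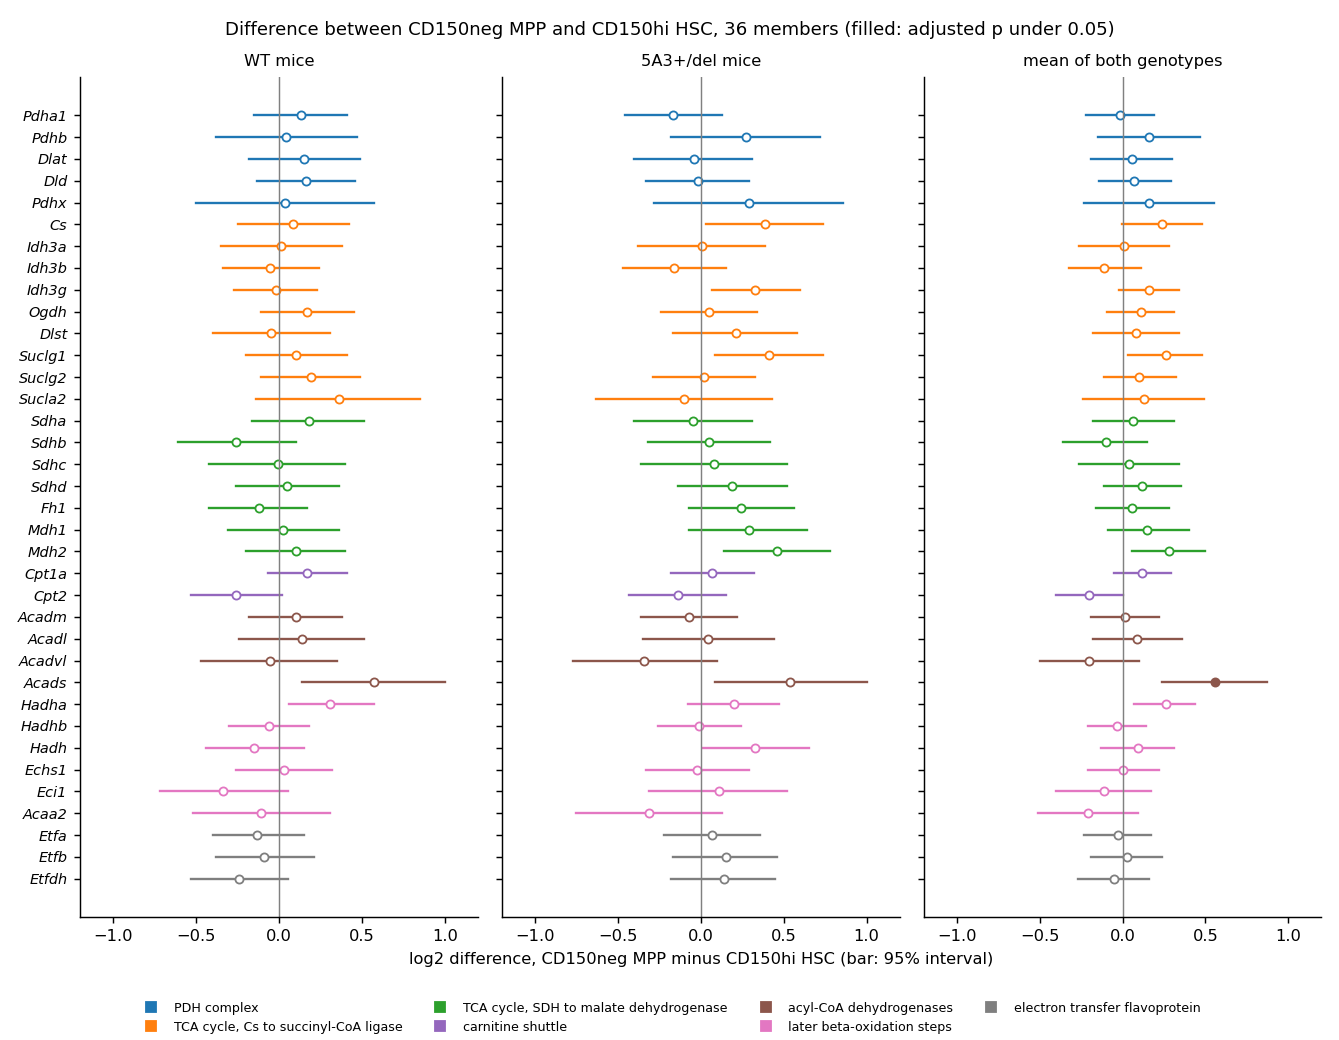
Difference of CD150neg MPP minus CD150hi HSC on the log2(FPKM + 1) scale for the 36 members tested in WT mice, in 5A3+/del mice and averaged over both, with 95% intervals as bars. The filled symbol is the only call, Acads at 0.56 in the average, with separate estimates of 0.57 and 0.54.

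Around these pathways a list of 77 related genes was drawn up by function, and 67 passed the filter. None was called between the genotypes in any population, with 8, 4 and 1 at an unadjusted p under 0.05 in CD150hi, CD150lo and CD150neg cells, where 13.1%, 6.87% and 4.27% of all genes were. Between populations within a genotype, calls among them were made for CD150neg MPP against CD150hi HSC, a contrast with 10% of all genes called in WT and 6.16% in 5A3+/del mice. In WT mice Acly, which splits exported citrate into cytosolic acetyl-CoA, was higher in CD150neg MPP (21.8 ± 2.77, SD, n = 5) than in CD150hi HSC (15.8 ± 2.56, n = 5), with a log2 difference of 0.44 (adjusted p = 0.0288 by limma). It was not called without WT mouse 1, 2, 3 or 5 (highest adjusted p = 0.153 by limma, without WT mouse 3).

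In 5A3+/del mice Pdk4 and Asns were lower in CD150neg MPP than in CD150hi HSC, and in both the groups did not overlap. Pdk4, a kinase that inactivates the pyruvate dehydrogenase complex, was at 0.785 to 4.56 in CD150hi HSC and 0.217 to 0.741 in CD150neg MPP (log2 difference -1.12, adjusted p = 0.0204 by limma). Asns, asparagine synthetase, was at 4.18 to 14.7 and 1.16 to 3.97 (-1.05, adjusted p = 0.0211 by limma), and the difference was -0.52 without 5A3+/del mouse 1 (adjusted p = 0.353). Of the 10 fits that left out a mouse, Asns was called in 8 (not without 5A3+/del mouse 1 or 5) and Pdk4 in 6 (not without 5A3+/del mouse 1, 2, 3 or 5), and for Pdk4 the highest adjusted p was 0.0993 by limma, without 5A3+/del mouse 2. With a pseudocount of 0.1 the difference of Pdk4 was -1.97 and not called (adjusted p = 0.0893 by limma). In WT mice Pdk4 was at 0.518 to 3.12 in CD150hi HSC and 0.129 to 1.41 in CD150neg MPP.

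Averaged over both genotypes, where 13.2% and 7.64% of all genes were called, Pdk4 was called lower in CD150neg MPP (-0.9, adjusted p = 0.00266 by limma) and in CD150lo HSC (-0.7, adjusted p = 0.027) than in CD150hi HSC. Asns (-0.79) and the regulator Pml (-0.26) were also lower, and Glud1, which converts glutamate to 2-oxoglutarate, higher (0.27) in CD150neg MPP than in CD150hi HSC. The 5 subunits of the pyruvate dehydrogenase complex that Pdk4 acts on had differences of -0.018 to 0.16 in the same contrast, none called. Proliferation markers were also compared, and none of 8 was called between CD150neg MPP and CD150hi HSC in the average (median 0.33).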

How the data were processed

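RNA was amplified from sorted cells, sequenced as paired reads and mapped to mm9 by the authors. Their processing notes name Bowtie 0.12.2 and HTSeq, and the annotation behind the counting is not given in the sources used here. The authors deposited 1 table of FPKM, 30025 genes by 29 libraries. Genes with at least 1 FPKM in at least 4 libraries (15409) were taken as log2(FPKM + 1), quantile normalized and fitted with limma 3.58.1 (R 4.3.3) on 6 group means, with two-sided tests, Benjamini-Hochberg adjustment over all 15409 genes and a threshold of 0.05. The pseudocount makes fold changes of low genes too small. The fit was tested on simulated data. Tables were made with Python 3.11.15 and pandas 2.3.3. Gene positions were matched by ID for 29279 genes. Members were named with all library values if they were called, had 1 of the 3 smallest p in a genotype comparison, or had the highest or lowest mean. Members, lists and averaged comparisons were chosen with earlier results of these data known. Mouse codes in the labels tie populations of 1 animal (median correlation of deviations 0.0786, n = 28 pairs) but not genotypes. Depth came from the steps of low values, of which 98.64% to 99.06% were whole fragments within 0.1, and counts of fragments cover counting error only. Alternatives changed the pseudocount, filter, normalization, prior, age covariate, libraries and block. A result on 1 related gene is not reported here.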

Additional observations from a re-analysis of the deposited data

Results flagged for a closer look

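In 12 members, each of the 6 groups was examined for a single library far from the others, and 4 of 72 groups had one, where chance gives about 1 in 20 groups (3.6). Acadl was at 38.2 normalized FPKM in WT CD150lo HSC of mouse 3, with 24.2 to 27.7 in the other 4 mice. Acadvl was at 2.62 in WT CD150neg MPP of mouse 2, with 1.17 to 1.36 in the others. Cs was at 58.1 in 5A3+/del CD150lo HSC of mouse 4, with 45.1 to 46.9 in the others. Hadh was at 16.9 in 5A3+/del CD150neg MPP of mouse 1, with 10.3 to 11.2 in the others.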

How the results depend on the processing

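Of the counts and medians recomputed under other settings, 617 kept their value within the limits set and 23 moved. For the named genes 433 values kept their side of the threshold, 13 lost and 10 gained a call, and none reversed. In CD150lo against CD150hi HSC of 5A3+/del mice 1 member (Cs) was called under an FPKM minimum of 10, a trended prior, and the replicate block with the mouse as random effect. In the genotype difference averaged over populations 1 member (Cpt1a) was called with no filter, an FPKM minimum of 10, a trended prior and the fixed replicate block, which pairs WT and 5A3+/del mice by a shared number only (median correlation of deviations 0.0345) and so has no basis in the design, and 0 to 1 when each mouse was left out. In the averaged difference of CD150neg MPP and CD150hi HSC, an FPKM minimum of 10 left Acads untested, and Hadha was called. In this averaged difference 2 members (Acads and Hadha) were called with the random replicate block, and 0 to 2 when each mouse was left out. In that of CD150lo and CD150hi HSC 0 were called with no filter, no normalization, an age covariate, only the groups compared or the fixed block, and 0 to 1 when each mouse was left out. The cause was not tested. Pairing by mouse changed no other call among these. With 4 or 5 mice a group, differences within the intervals given could not be resolved, and Pcx and Cpt1b lay near the detection limit.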
